A study of Mus musculus with 2 samples.

Results

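The vascular connexins Gja1, Gja4 and Gja5 were followed through single endothelial cells of the mouse lung. The members were the rows of the deposited matrices that carry these symbols, 3 of 32286 features, and each symbol matched 1 row in both libraries. The series profiled lung cells marked by VE-cadherin-cre, in which cre recombinase under an endothelial cadherin promoter had switched on the red reporter tdTomato. The title names a model of Hereditary Hemorrhagic Telangiectasia 2, a vascular disease of people that arises from ACVRL1, the gene of the receptor ALK1. There were 2 libraries of sorted tdTomato+ cells, aWT and aKO, and both came from mice of strain C57BL/6J at an age of 10 to 12 weeks. The labels name no deleted gene, do not say how many animals were pooled, and do not say whether the cre was constitutive or induced.

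Each group was a single library (n = 1), so no replicate error could be had and no difference between the groups was tested. All intervals are 95% intervals for counting error only, exact Poisson for levels and exact Clopper-Pearson for shares of cells. The aWT library held 15996 barcodes and 72270260 unique molecular identifiers (UMIs, each counting 1 captured transcript), and the aKO library 11045 barcodes and 75950364 UMIs. After filtering, 14900 aWT cells with a median of 3918 UMIs and 10380 aKO cells with a median of 5738.5 remained, so aKO cells were deeper. Of these cells 14323 and 10105 were endothelial by marker UMIs, and 39 barcodes occurred in both libraries. On the CPM scale (UMIs of a gene per 1000000 UMIs of the same cells), Acvrl1 reached 1024 in aWT and 486 in aKO endothelial cells, and a 3' count does not show whether an exon upstream was deleted. Xist, which is transcribed in females, had 3.53 CPM in aWT against 728 CPM in aKO, and the Y-linked Ddx3y 107 against 0.0288 CPM, so sex and group cannot be told apart.

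Connexins are membrane proteins that assemble into rings, and rings of adjoining cells dock to form gap junction channels through which ions and small molecules pass. Gja4 encodes Cx37 and Gja5 encodes Cx40, the connexins classically assigned to arterial endothelium, where coupling carries vasomotor signals along the vessel. Gja1 encodes Cx43, the most widespread connexin, which in the vascular system is known from smooth muscle, from endothelium in disturbed flow and, with Cx37, from lymphatic vessels and their valves. Notch signalling and fluid shear are known to raise Gja4 in arterial endothelium, and BMP9 signalling through ALK1 is a regulator of the same cells.

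The members lie on separate chromosomes of mm10. In GENCODE M21, Gja4 (ENSMUSG00000050234) spans chr4:127311421-127314039 on the minus strand, Gja5 (ENSMUSG00000057123) chr3:96904693-97077416 on the plus strand and Gja1 (ENSMUSG00000050953) chr10:56377330-56402513 on the plus strand. Their promoter windows, from 250 bases before to 50 bases after the RefSeq start on GRCm38.p6, are printed because the 3 genes were detected in different endothelial classes. Capitals mark matches to 5 motifs searched on both strands, TGGGAA (the core of Notch-RBPJ sites), CACCC (a KLF core), ACAAT (a SOX core), GGCGCC (a BMP-SMAD element) and TATAAA. The windows are chr4:127313990-127314289 (minus strand) for Gja4, chr3:97032152-97032451 (plus strand) for Gja5 and chr10:56377050-56377349 (plus strand) for Gja1.
Gja4: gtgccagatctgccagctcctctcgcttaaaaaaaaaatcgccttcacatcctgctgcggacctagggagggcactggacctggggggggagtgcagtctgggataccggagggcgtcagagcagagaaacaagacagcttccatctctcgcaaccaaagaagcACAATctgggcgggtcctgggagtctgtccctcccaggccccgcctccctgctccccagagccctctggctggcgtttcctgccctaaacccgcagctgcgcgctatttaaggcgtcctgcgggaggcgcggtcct
Gja5: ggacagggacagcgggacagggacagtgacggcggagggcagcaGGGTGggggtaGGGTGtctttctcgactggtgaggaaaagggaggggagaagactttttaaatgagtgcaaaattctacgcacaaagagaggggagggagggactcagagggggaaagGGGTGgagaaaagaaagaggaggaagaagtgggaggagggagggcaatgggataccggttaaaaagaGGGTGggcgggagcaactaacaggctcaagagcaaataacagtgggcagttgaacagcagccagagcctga
Gja1: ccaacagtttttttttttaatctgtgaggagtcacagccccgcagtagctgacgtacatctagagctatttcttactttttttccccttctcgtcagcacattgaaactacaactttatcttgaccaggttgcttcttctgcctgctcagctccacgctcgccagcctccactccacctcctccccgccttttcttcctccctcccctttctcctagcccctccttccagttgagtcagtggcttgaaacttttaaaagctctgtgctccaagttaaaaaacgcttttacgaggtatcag
The Gja4 window held 1 ACAAT, with its first base at -86 from the start. CACCC occurred 4 times in the Gja5 window, each on the opposite strand and so written GGGTG, at -206, -195, -88 and -21. No match to the 5 motifs was found in the Gja1 window. Among 32851 RefSeq promoter windows of 300 bases, 57.5% held CACCC, 31.0% ACAAT, 25.6% TGGGAA, 13.6% TATAAA and 11.9% GGCGCC, so each match is a common one. The GC content was 62.0% for Gja4, 55.7% for Gja5 and 47.7% for Gja1. The RefSeq start of Gja5 lies 127709 bases inside its GENCODE span, which has other start sites, and the libraries, read from the 3' end, do not show which start was used.

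Each endothelial cell was placed in the class whose marker list scored highest in it, and connexins were in none of the lists. This gave 6517 aWT and 1846 aKO general capillary cells (Gpihbp1, Aplnr, Kit), 2333 and 1258 aerocytes (Car4, Ednrb, Apln), 1267 and 1172 arterial cells (Bmx, Dkk2, Mgp), 1437 and 1008 venous cells (Slc6a2, Prss23, Vcam1) and 509 and 1699 lymphatic cells (Prox1, Mmrn1, Reln). No class was given to 2260 aWT cells (15.8%) and 3122 aKO cells (30.9%), which had no leading list. Scores lay within 0.1 of the required margin for 1637 aWT and 1866 aKO cells. The markers that set a class differed between the libraries too: in arterial cells the median UMIs per 10000 were 53.4 in aWT and 40.0 in aKO for the arterial list, 23.0 and 9.76 for the venous list and 21.4 and 10.9 for the general capillary list. In general capillary cells they were 85.7 and 53.1 for the general capillary list, 15.1 and 7.24 for the arterial list and 2.37 and 9.02 for the aerocyte list. The sort, the depth gap and the class rule can all set cell numbers, so class sizes are given as the n behind each level.

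The 3 genes were spread unevenly over the endothelial classes. In both libraries Gja4 and Gja5 were highest in arterial cells and Gja1 in lymphatic cells, while general capillary cells came second for Gja4 in aWT and the fourth in aKO. Of the UMIs in aWT endothelial cells, general capillary cells held 51.0% and arterial cells 28.4% of those of Gja4, arterial cells held 69.2% of those of Gja5, and lymphatic cells held 79.1% of those of Gja1. In aKO, arterial cells held 88.9% of Gja5 UMIs and lymphatic cells 93.8% of Gja1 UMIs. Gja4 UMIs were spread differently there, with 36.4% in arterial, 27.6% in lymphatic and 8.77% in general capillary cells.

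**Figure D1:**
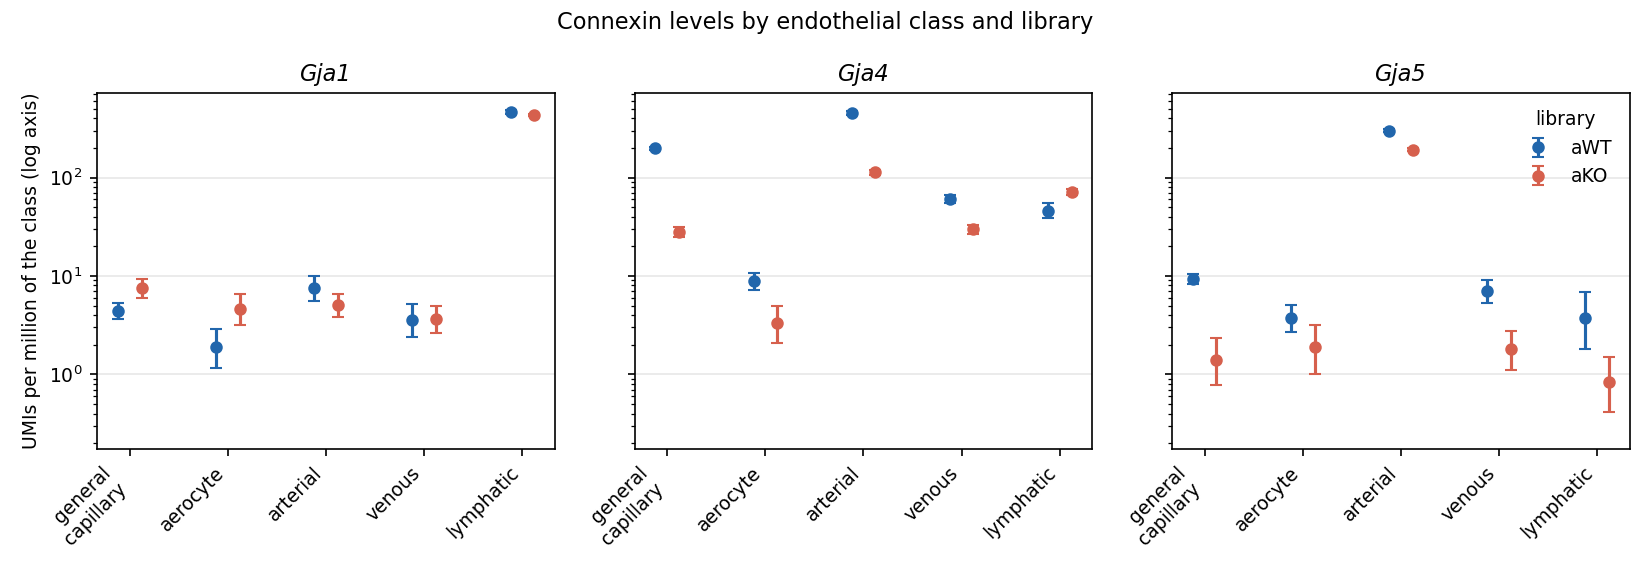
Level in CPM of the class (log axis) of Gja1, Gja4 and Gja5 in 5 endothelial classes, aWT in blue and aKO in red, with exact 95% Poisson intervals. Gja1 reaches 428.8 CPM or more in lymphatic cells alone, Gja5 192.4 CPM or more in arterial cells alone, and Gja4 is lower in aKO in every blood class and higher in lymphatic cells.

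Gja4, the connexin of arteries and capillaries, stood highest in arterial cells, at 453.0 CPM in aWT (436.9 to 469.7) and 112.8 CPM in aKO (106.6 to 119.2). In general capillary cells, the plexus cells that make up most of the alveolar capillary bed, it stood at 197.9 CPM in aWT (192.6 to 203.3) and 27.98 CPM in aKO (24.89 to 31.35). Venous cells held 60.52 CPM (55.26 to 66.14) and 29.76 CPM (26.65 to 33.14). The order in aWT was arterial, general capillary, venous, lymphatic and aerocyte, with no overlap between the intervals of neighbours. In aKO the lymphatic class was second, and the intervals of venous and general capillary cells overlapped. Aerocytes, the large capillary cells specialised for gas exchange, had little Gja4 in both libraries, with 98 UMIs or 8.79 CPM in aWT and 23 UMIs or 3.32 CPM in aKO.

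The log2 ratio of aKO over aWT, taken after adding 5 CPM to each level, was -2.62 for Gja4 in general capillary cells (-2.77 to -2.48), a 7.07-fold lower level in aKO without the added CPM. It was -1.96 in arterial cells (-2.05 to -1.87) and -0.91 in venous cells (-1.09 to -0.738). Gja4 was thus lower in aKO by more than the counting error in these 3 classes. It was the only member with at least 50 CPM in 1 library of general capillary cells, and it was past 1.5-fold lower there, as were 6.34% of 4386 genes at that minimum. Of those genes 0.296% had a ratio at or below that of Gja4. Gja4 was also past 1.5-fold lower in venous cells, as were 11.8% of genes, and 5.01% of genes lay at or below it. In arterial cells 2 of 2 members with at least 50 CPM, Gja4 and Gja5, were past 1.5-fold lower, as were 10.2% of 4396 genes, with 1.21% of genes at or below Gja4 and 9.21% at or below Gja5.

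**Figure D2:**
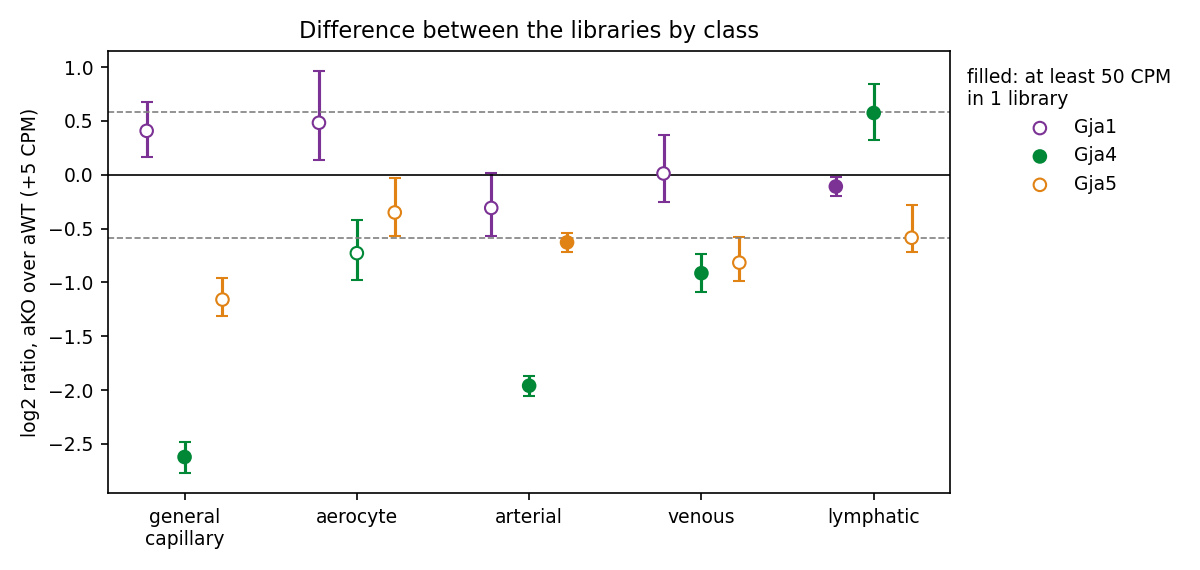
Log2 ratio of aKO over aWT after adding 5 CPM, with 95% counting intervals, for each gene and class; filled points have at least 50 CPM in 1 library and dashed lines mark 1.5-fold. Gja4 runs from -2.62 in general capillary cells to 0.57 in lymphatic cells, while Gja1 in lymphatic cells lies at -0.11.

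Over all endothelial cells together Gja4 was 166.7 CPM in aWT against 48.96 CPM in aKO (log2 ratio -1.67), with 8.1% of genes past 1.5-fold lower and 1.24% at or below it. The share of cells with a Gja4 UMI gave the same direction as the summed levels in the blood classes. Before thinning, 45.7% of aWT and 12.7% of aKO general capillary cells held a UMI, at median depths of 3842 and 5449 UMIs. After each cell was thinned to 2000 UMIs, which left out 524 and 107 shallower cells, the shares were 29.4% (28.3 to 30.6) and 4.14% (3.25 to 5.19). In arterial cells the thinned shares were 49.5% (46.5 to 52.5) and 16.9% (14.8 to 19.2), and in venous cells 10.7% (9.06 to 12.5) and 4.66% (3.42 to 6.19). Alveolar type 2 like cells, epithelial cells that should lack Gja4, held it in 6 of 110 thinned aWT cells (5.45%, 2.03 to 11.5) at a median depth of 15771 UMIs, and in 0 of 16 in aKO. The aKO shares of general capillary and venous cells were no higher than this aWT background share. They were above the share of aKO aerocytes, 0.626% (0.252 to 1.29), in the same library.

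Among cells with a Gja4 UMI the mean number of UMIs was 3.54 in aWT and 2.72 in aKO arterial cells, and 1.78 and 1.27 in general capillary cells, although aKO cells were deeper. The single cell with the most Gja4 was arterial in both libraries, with 37 UMIs in aWT and 24 in aKO. The unassigned cells followed the capillary pattern, with Gja4 at 197.8 CPM for aWT and 34.45 CPM for aKO.

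Some other measures moved with Gja4 between the libraries, and some moved against it. In general capillary cells the summed general capillary markers went from 8794 CPM in aWT to 5373 CPM in aKO (5 of 8 lower and 0 higher past 1.5-fold), and the 9 immediate early and dissociation stress genes from 9160 to 3281 CPM (7 lower), where 5.57% of 10472 genes with at least 5 CPM were lower. In arterial cells the 10 arterial markers summed to 8156 and 5935 CPM (2 lower and 1 higher), where 8.92% of 10934 genes were lower and 9.89% higher. The 7 alveolar type 2 markers, which come from other cells, summed to 208.8 and 18.03 CPM in general capillary cells, with none of the 7 at 0 in both libraries. Higher in aKO general capillary cells were the sums of the pan-endothelial (10930 and 13880 CPM), aerocyte (323.7 and 1050 CPM) and alveolar type 1 markers (217.0 and 662.7 CPM). The part of these differences in the Gja4 ratio was not tested.

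Gja5, the second arterial connexin, was highest in arterial cells in both libraries and differed less between them there than Gja4. Arterial cells held 1960 UMIs or 300.1 CPM in aWT (286.9 to 313.7) and 2112 UMIs or 192.4 CPM in aKO (184.3 to 200.8), a log2 ratio of -0.63 (-0.715 to -0.541). The thinned shares of arterial cells with a UMI were 38.9% (36.02 to 41.84) and 23.8% (21.4 to 26.5), against 2 of 110 alveolar type 2 like cells (1.82%) in aWT. In every other class set by markers Gja5 stood below 10 CPM, though 1 general capillary cluster described below held more. The cells given no class held it at 70.45 CPM in aWT, with 18.1% of its UMIs, against 12.33 CPM in aKO, which is 5.71-fold lower (4.85 to 6.75), beside 5.74-fold (5.21 to 6.34) for Gja4 in the same cells. General capillary cells came next in aWT with 250 UMIs or 9.31 CPM, beside 15 UMIs or 1.41 CPM in aKO. Venous cells held 6.96 and 1.79 CPM (3.88-fold, 2.29 to 6.83, beside 2.03-fold, 1.77 to 2.35, for Gja4), aerocytes 3.77 and 1.88 CPM and lymphatic cells 3.76 and 0.837 CPM, levels close to the 4.22 CPM of aWT alveolar type 2 like cells. In aKO the intervals of neighbours overlapped through all classes after arterial.

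Some arterial cells held both Gja4 and Gja5. After thinning, 227 of 1108 aWT arterial cells (20.5%, 18.2 to 23.0) held both, where the product of the single shares was 19.2%, within that interval. In aKO 76 of 1112 held both (6.84%, 5.42 to 8.48), where the product was 4.03%, below it. Of the arterial cells with a Gja5 UMI, 52.7% in aWT and 28.7% in aKO also held a Gja4 UMI. Neither connexin was seen in 356 aWT and 735 aKO arterial cells at this depth.

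Different clusters of cells made up the arterial class in the 2 libraries. When cells were clustered without the connexins, 679 of the 1267 aWT arterial cells lay in cluster c10 (931 aWT and 12 aKO cells in all) and 660 of the 1172 aKO arterial cells in c7 (8 aWT and 1297 aKO cells), while c13 held both (284 and 385 cells). In c13, whose leading genes include the arterial marker Mgp, Gja5 stood at 432.4 CPM in aWT (403.6 to 462.8) and 412.7 CPM in aKO (393.3 to 432.8), intervals that overlap, and the log2 ratio was -0.07 (-0.185 to 0.0534). Gja4 in the same cluster stood at 519.7 CPM in aWT (488.0 to 552.9) and 228.7 CPM in aKO (214.3 to 243.7), a log2 ratio of -1.17 (-1.29 to -1.04). The Gja5 difference of the arterial class was therefore not past counting error in the cluster shared by both libraries, and that of Gja4 was smaller there.

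Cluster c10, almost all aWT, held Gja4 at 438.9 CPM and Gja5 at 295.4 CPM. Cluster c7, almost all aKO, held Gja4 at 43.08 CPM and Gja5 at 50.68 CPM. With 1 library per group, c10 and c7 may stand for their libraries and not for types of artery. The border between c10 and the aWT capillary clusters also shifted with the numerical precision of the clustering, so the size and levels of c10 are less firm than those of c13. Among general capillary cells, aWT cells lay mostly in c0 (Gja4 at 235.9 CPM), c2 (141.2 CPM) and c3 (213.4 CPM), and aKO cells in c1 (23.1 CPM), so no cluster gave a balanced comparison there. Cluster c3 (2399 aWT and 16 aKO cells) held 478 Gja5 UMIs or 50.67 CPM in aWT, above the 9.31 CPM of the aWT general capillary class. By markers 1527 of its aWT cells were general capillary and 186 arterial.

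**Figure D3:**
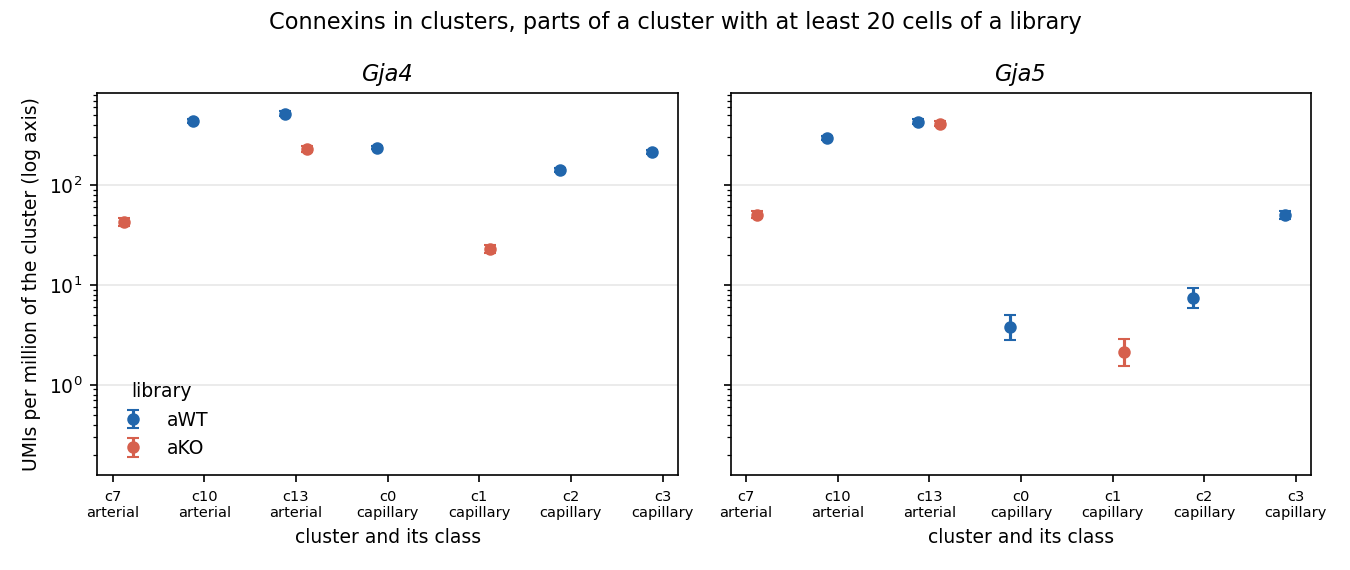
Level in CPM (log axis) of Gja4 and Gja5 in each arterial and general capillary cluster, shown for a library where it gave at least 20 cells, with 95% Poisson intervals. In c13, the arterial cluster with cells of both libraries, Gja5 lies at 432.4 and 412.7 CPM with overlapping intervals, while Gja4 lies at 519.7 and 228.7 CPM.

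Both arterial connexins climbed with the number of arterial markers a blood endothelial cell held. The markers (Bmx, Dkk2, Mgp, Stmn2, Fbln5, Htra1, Sema3g, Efnb2, Sox17 and Ltbp4) were counted after thinning and levels were taken from all UMIs of the binned cells. From 0 to 6 or more markers, Gja4 went from 76.05 to 543.5 CPM in aWT and from 13.0 to 159.3 CPM in aKO, and at each of the 7 bins the aKO interval lay wholly below that of aWT. Gja5 went from 3.78 to 365.8 CPM in aWT and from 2.38 to 287.0 CPM in aKO. With 1, 2 and 3 markers it stood at 7.70, 15.59 and 40.44 CPM for aWT against 2.02, 10.62 and 29.83 CPM for aKO, and the intervals did not overlap. At 4 markers it stood at 92.58 CPM in aWT (84.73 to 101.0) and 91.44 CPM in aKO (83.52 to 99.9), which do not differ beyond counting error. At 5 markers the intervals also overlapped, with 216.8 and 192.2 CPM, at 6 or more they did not, and with 0 they did, so 4 of the 7 bins were apart. Arterial cells were also matched in bins of 3 or fewer, 4, 5 and 6 or more markers, so those with 3 or fewer were pooled. The log2 ratio was then -1.87 for Gja4 and -0.51 for Gja5, and the Gja5 value is under 1.5-fold. Of the 10 markers 2 were themselves past 1.5-fold lower in aKO arterial cells, Efnb2 among them (1300 and 463.0 CPM), and 1 higher. Cells with the same number of markers are therefore not fully matched.

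**Figure D4:**
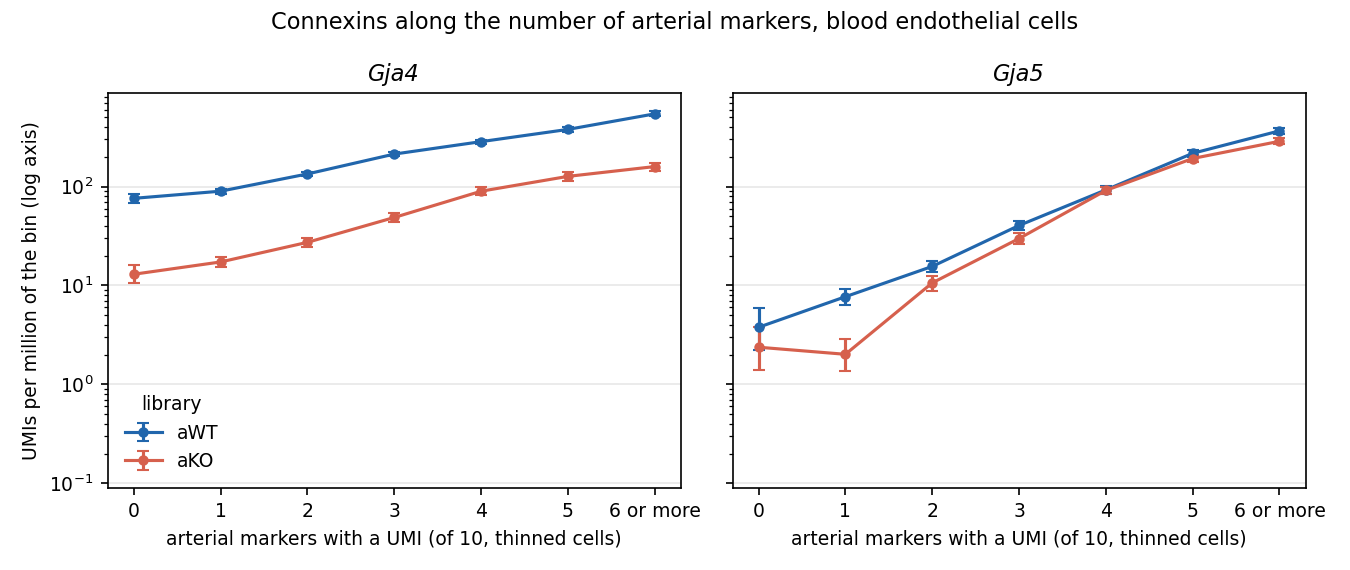
Level in CPM (log axis) of Gja4 and Gja5 in blood endothelial cells binned by how many of 10 arterial markers held a UMI after thinning, with 95% Poisson intervals. The Gja4 lines run apart over all 7 bins, and the Gja5 lines meet at 4 markers.

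The same held within one class for Gja4. In general capillary cells with no arterial marker Gja4 stood at 149.7 CPM for aWT and 20.97 CPM for aKO, and with 3 markers at 239.6 and 54.11 CPM. Vwf, the gene of von Willebrand factor, which is dense in larger vessels, split the arterial class further. Vwf is also in the venous list of the class rule, so this split is not independent of how arterial cells were called. Arterial cells with a Vwf UMI held Gja5 at 323.8 CPM for aWT and 265.9 CPM for aKO, and those without at 129.3 and 98.74 CPM. For Gja4 the values were 479.1 and 147.9 CPM with Vwf, and 288.2 and 69.12 CPM without. Of the arterial cells deep enough to thin, 996 of 1108 in aWT and 615 of 1112 in aKO held Vwf, a difference that moved with both connexins and whose part in their ratios was not tested.

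Gja1 was found mainly in lymphatic endothelium and did not follow the blood vessel pattern. Lymphatic cells held 1232 UMIs or 462.8 CPM in aWT (437.3 to 489.4) and 5634 UMIs or 428.8 CPM in aKO (417.7 to 440.2). The log2 ratio was -0.11 (-0.197 to -0.0196), so the levels differed by little more than counting error, and 33.8% of 4479 genes had a ratio at or below it. After thinning, 50.4% of aWT (45.5 to 55.3) and 50.8% of aKO lymphatic cells (48.3 to 53.3) held a Gja1 UMI, at unthinned median depths of 4300 and 6892 UMIs. The other classes set by markers stood between 1.88 and 7.51 CPM, and at most 1.09% of their thinned cells held a UMI. Cells given no class held more Gja1, with 14.69 CPM for aWT, 9.79 CPM for aKO and thinned shares of 1.65% and 1.4%. The aWT cells of venous cluster c9 (266 aWT and 993 aKO cells) also held more, with 48 UMIs or 24.64 CPM (18.17 to 32.67). Its aKO cells held 3.73 CPM, a log2 ratio of -1.76 (-2.0 to -1.47). Among thinned aWT airway epithelial like cells 1 in 66 held a UMI (1.52%, 0.038 to 8.155). This interval is too wide to say whether the low shares exceed background.

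Summed over all endothelial cells, Gja1 had 24.9 CPM for aWT and 86.54 CPM for aKO library, a log2 ratio of 1.61. It was past 1.5-fold higher, as were 13.2% of 4592 genes. Lymphatic cells made up 3.55% of aWT and 16.8% of aKO endothelial cells, and over the lymphatic class as a whole the difference had the other sign. It did not in the lymphatic cluster c12, where Gja1 was higher in aKO (log2 ratio 0.29, 0.088 to 0.499). Over blood endothelial cells alone Gja1 stood at 5.43 and 6.6 CPM, a log2 ratio of 0.15. Alveolar type 2 like cells also held Gja1, with 136 UMIs or 81.96 CPM in aWT (68.76 to 96.95) and 15 UMIs or 64.44 CPM in aKO (36.07 to 106.3), so they give no background for this gene.

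In lymphatic cells Gja4 was higher in aKO, opposite to the blood classes. It stood at 123 UMIs or 46.2 CPM in aWT (38.4 to 55.13) and 936 UMIs or 71.24 CPM in aKO (66.75 to 75.96), a log2 ratio of 0.57 (0.321 to 0.841). This is under 1.5-fold on the scale with 5 CPM added, a size that 6.03% of genes passed upward, and 93.8% of genes had a ratio at or below it. The thinned shares were 6.44% in aWT (4.29 to 9.24) and 11.1% in aKO (9.6 to 12.7), and the aWT share is near the 5.45% of alveolar type 2 like cells. With the cells called as doublets kept, the log2 ratio was 0.35. Within the lymphatic clusters Gja4 stood at 37.8 CPM (aWT) and 55.14 CPM (aKO) in c6, and at 75.52 and 89.56 CPM in c12, where the intervals overlapped. Of the lymphatic class, c6 held 330 aWT and 885 aKO cells, and c12 held 125 and 734. The mix of these clusters thus differed between the libraries, and its part in the class ratios of Gja4 and Gja1 was not tested. Gja1 was 534.9 and 510.8 CPM in c6 (log2 ratio -0.07, -0.165 to 0.0342), and 288.3 and 353.6 CPM in c12 (0.29, 0.088 to 0.499). In c18, with 42 aWT and 41 aKO cells, it was 378.1 and 165.6 CPM.

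Lymphatic cells with 3 or more of 6 valve markers, Foxc2, Itga9, Cldn11, Gata2, Clu and Neo1, had the highest Gja4 and the lowest Gja1 of the lymphatic bins in both libraries. In aKO cells with 0, 1, 2 and 3 or more of them, Gja4 stood at 64.7, 52.94, 121.1 and 256.7 CPM. In aWT it stood at 33.47, 40.39, 73.05 and 219.1 CPM, the last from 11 cells and 15 UMIs (122.6 to 361.3). Gja1 was lower in the cells with 3 or more, at 226.5 CPM in aKO (182.1 to 278.4) and 219.1 CPM in aWT (122.6 to 361.3), against 402.9 and 422.1 CPM in cells with none. With 1 and 2 markers Gja1 stood at 458.3 and 408.0 CPM in aKO and at 471.2 and 531.3 CPM in aWT, so it was not lower there, and the aWT value for 3 or more rests on 15 UMIs. Foxc2, a transcription factor of valve cells, held a UMI in 19.0% of aKO and 8.06% of aWT lymphatic cells before thinning, where aKO cells were deeper. Lymphatic cells with neither a Foxc2 nor a Cldn11 UMI after thinning still held Gja4 at 39.48 CPM in aWT (31.94 to 48.26) and 60.57 CPM in aKO (56.2 to 65.19).

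**Figure D5:**
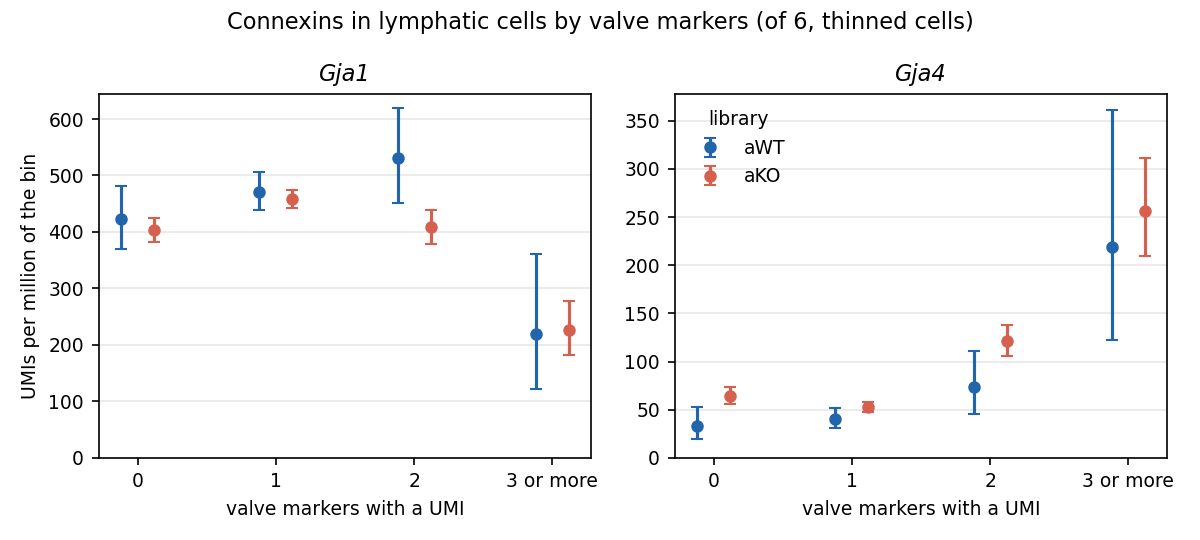
Level in CPM of Gja1 and Gja4 in lymphatic cells binned by how many of 6 valve markers held a UMI after thinning, with 95% Poisson intervals. Gja4 is highest and Gja1 lowest in the cells with 3 or more valve markers, of which aWT has 11 and aKO 55.

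Of 16 other connexin genes counted here, 1 reached 5 CPM in 1 library of all endothelial cells, Gjc1, and of 3 pannexin genes none did. Gjc1, the gene of Cx45, known from smooth muscle and conduction tissue, was found in all 5 classes. Its levels in aWT and aKO were 82.27 and 122.4 CPM in general capillary cells (log2 ratio 0.55, under 1.5-fold), 126.9 and 135.2 CPM in aerocytes, 59.1 and 79.62 CPM in arterial, 113.8 and 112.9 CPM in venous and 39.07 and 46.58 CPM in lymphatic cells. Along the arterial markers it ran against Gja4 and Gja5, from 105.7 CPM with none to 52.7 CPM with 6 or more in aWT, and from 128.6 to 70.35 CPM in aKO.

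Of 14 listed connexin partners and trafficking genes, 13 were measured, and in arterial cells 2 were past 1.5-fold higher and 1 lower, against 9.89% higher and 8.92% lower among 10934 genes with at least 5 CPM. Their median log2 ratio was 0.05, beside 0.02 over those genes. Ccn3, a matricellular protein, stood at 3.83 and 23.69 CPM (1.70), the intermediate filament gene Vim at 1087 and 3144 CPM (1.53), the cell cycle inhibitor Cdkn1b at 75.17 and 44.0 CPM (-0.71) and Cav1, the coat protein of caveolae, at 934.7 and 1382 CPM (0.56). Over all endothelial cells 3 were higher and 2 lower, with 11.9% and 6.17% of 11157 genes, and Tuba1b, a tubulin gene, stood at 100.6 and 174.4 CPM (0.76). The junction scaffold gene Tjp1 was the second that was lower there, at 628.2 and 402.8 CPM (-0.64); it was named after its value had been seen.

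Genes of the arterial programme and its upstream regulators were compared in the same way. Of 26 listed, 25 were measured, and in arterial cells 10 were past 1.5-fold lower, 0 higher and 15 within it, against 8.92% lower and 9.89% higher among all genes tested. Their median log2 ratio was -0.38 beside 0.02 over all 10934 genes. The list shares Efnb2 and Sox17 with the arterial markers and Foxc2 and Gata2 with the valve markers. The inhibitory SMAD gene Smad6 stood at 1308 CPM in aWT against 228.0 CPM in aKO arterial cells (-2.50), and the Notch target Hey1 at 203.5 and 41.9 CPM (-2.15). The VEGF co-receptor gene Nrp1 stood at 745.5 and 206.7 CPM (-1.83) and the T-box gene Tbx3 at 131.5 and 40.72 CPM (-1.58). Over all endothelial cells 10 were lower and 2 higher, against 6.17% and 11.9% of genes, with Efnb2, the arterial ephrin, at 644.2 and 254.4 CPM (-1.32). The flow-responsive genes Klf2 and Klf4, chosen after their values had been seen, had log2 ratios of 0.10 and 0.13 in arterial cells. In other classes they were 0.02 and -0.24 in general capillary cells and 0.04 and -0.15 in aerocytes. They were lower in aKO in venous (-0.41 and -0.48) and lymphatic cells (-0.78 and -0.50).

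The genes most like each member were found by Pearson r of log2(CPM + 5) over the 10 class and library sums, among 5763 genes with at least 50 CPM in 1 of them. This is a description: the sums share libraries and depth, and the classes were set by markers. Closest to Gja5 were Hey2 (r = 0.978), a Notch target of arteries, then Slit2 (0.977), the oestrogen receptor gene Esr2 (0.973), the Wnt antagonist gene Sfrp1 (0.969) and Mbd4 (0.967). In arterial cells Hey2 reached 75.17 CPM in aWT against 40.81 CPM in aKO and below 2 CPM elsewhere. Closest to Gja1 were Ankrd6 (0.998), Sgsm1 (0.996), Thy1 (0.995), Hoxd9 (0.995) and Pld5 (0.995), of which Thy1 is itself a lymphatic marker here. Gja4 had no such close neighbour: Rgs3 (0.942), the atypical cadherin gene Fat4 (0.935), Sept11 (0.922), Pcmtd1 (0.917) and Ror1 (0.912) came first. Fat4 stood at 64.39 and 28.36 CPM in general capillary and 76.86 and 26.14 CPM in arterial cells. Between the members r was 0.70 for Gja4 with Gja5, 0.09 for Gja4 with Gja1 and -0.25 for Gja5 with Gja1.

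Proliferating cells, those with UMIs of at least 3 of 8 cell cycle markers, numbered 26 in aWT and 160 in aKO. Among the 81 venous aKO cells of this kind Gja4 stood at 12.85 CPM (7.85 to 19.85), against 32.5 CPM (29.0 to 36.32) in other venous aKO cells, whose level remained below the 60.82 CPM of other venous aWT cells. Over all endothelial cells the summed cell cycle markers moved with the groups, at 31.6 CPM for aWT and 147.0 CPM for aKO. In lymphatic cells they went the other way, at 136.7 CPM for aWT and 36.54 CPM for aKO.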

How the data were processed

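Sorted tdTomato+ lung cells of 2 libraries were grouped by their titles. The deposited matrices hold UMI counts per gene and barcode, whole numbers that the authors had not normalized, made with Cell Ranger 7.2.0 on mm10 per the submitters' processing notes, from single cell 3' v3 libraries as the labels' protocols state. For the annotation release and the treatment of intronic reads, the choice is not given in the sources used here. The members and gene lists were chosen with earlier results of these data known.

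A barcode was kept if it had 500 or more genes and no more than 15% mitochondrial UMIs. Scrublet in scanpy 1.11.5, run at 0.8% expected doublets per 1000 barcodes, removed 762 aWT and 406 aKO calls. Endothelial cells held UMIs of at least 3 of 7 pan-endothelial and at most 2 of 9 epithelial markers. A class had the highest mean z-score over its markers (log of UMIs per 10000, clipped at 3), led by 0.25 and held at least 2 markers; this way of combining markers was set after the data had been seen. Clusters used 2000 variable genes without connexins, 30 components, 15 neighbours and leidenalg 0.10.2 at resolution 1. Epithelial-like cells held UMIs of several epithelial markers.

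UMIs were summed per class and library. Ratios used log2(CPM + 5), which understates changes of low genes. Genes past 1.5-fold were counted among those with at least 50 CPM in 1 library, or 5 CPM for lists. Named genes were the 3 members in every class, up to 4 per list by size in arterial and in all endothelial cells, and the 5 most like each member. The values of 1 listed gene are not reported here. The size rule was checked on simulated counts with counting error only, so the check does not cover differences between animals or libraries. Promoters came from the RefSeq table (GRCm38.p6), where all 3 members matched. Alternatives used edgeR 4.0.16, R 4.3.3, Python 3.11.15, numpy 2.4.6, scipy 1.17.1 and pandas 2.3.3. Protein sequences were not used here.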

Additional observations from a re-analysis of the deposited data

Results flagged for a closer look

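Gja4 differed between classes in the direction of its difference between the libraries. Its log2 ratio of aKO over aWT was higher in lymphatic cells than in general capillary cells by 3.195, than in arterial cells by 2.533 and than in venous cells by 1.488. The counting intervals of the ratio lay above 0 in lymphatic cells and below 0 in the other 3 classes. With 1 library per group the difference between classes was not tested. The 6 valve markers of lymphatic cells summed to 951.5 CPM in aWT and 872.4 CPM in aKO, a sum lower in aKO, unlike Gja4. Singly, 4 of them were past 1.5-fold higher in aKO and 0 lower. These markers, the number of aWT lymphatic cells, 509, and the mix of clusters c6 and c12 in each library stand beside the Gja4 difference. Their part was not tested.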

How the results depend on the processing

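Over 15 alternatives and 231 recomputed log2 ratios of members by class, 186 lay within the counting interval of the reported value, 45 moved beyond it and 0 values past 1.5-fold changed sign. Low Gja1 ratios did: it kept its sign in 11 of 13 alternatives in aerocytes (-3.05 to 0.96), 12 of 14 in arterial (-0.63 to 0.07) and 6 of 13 in venous cells (-1.76 to 0.04). Of those, 31 that moved were of low levels or of all endothelial cells. The ratio of Gja4 kept its sign in general capillary (-2.78 to -2.49), arterial (-2.22 to -1.17), venous (-1.21 to -0.59) and lymphatic cells (0.35 to 0.86), and stayed past 1.5-fold in the first 3. Gja5 in arterial cells ranged from -1.13 to -0.07 and was past 1.5-fold in 9 of 14, and Gja1 in lymphatic cells ranged from -0.12 to -0.07.

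The mean over cells gave -1.213 for Gja4 in venous and 0.863 in lymphatic cells, and a pseudocount of 1 CPM gave -2.779 in general capillary cells. Classes from clusters gave -2.221 for Gja4 in arterial cells, -0.694 in venous cells and -1.131 for Gja5 in arterial cells. Among alternatives added after the data were seen, clusters with at least 10% of their cells from each library gave -1.167, -0.591 and -0.067 in the same order, and matching on arterial markers gave -1.865 and -0.509 for Gja4 and Gja5 in arterial cells. A score margin of 0 gave -0.796 and one of 0.5 gave -0.443 for Gja5 in arterial cells, and 0.5 gave -1.145 for Gja4 in venous cells. The cause was not tested.

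Thinning lowered each share of cells with a UMI, by its construction. The thinned Gja4 shares in aWT and aKO were 29.43% and 4.14% in general capillary, 49.46% and 16.91% in arterial, 10.71% and 4.663% in venous and 6.444% and 11.1% in lymphatic cells. They were 38.9% and 23.83% for Gja5 in arterial and 50.36% and 50.78% for Gja1 in lymphatic cells. With a minimum of 10 CPM, 5.55% of genes in general capillary and 8.62% in arterial cells were past 1.5-fold lower, and with none 2.84% and 5.2%, while 3.37% were past it upward in lymphatic cells, since more low genes enter. There were no replicates to leave out. No paired analysis was possible because each group has 1 library.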

Other observations

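The level of Gja4 in aKO blood endothelium varied with Id1, a target gene of BMP signalling, in a split that was chosen after the values had been seen. In aKO general capillary cells with 0, 1 and 2 or more Id1 UMIs after thinning, Gja4 stood at 23.89 CPM (1651 cells), 75.62 CPM (74 cells) and 296.5 CPM (14 cells and 22 UMIs, 185.8 to 448.9). In aWT general capillary cells the same levels were 176.6, 183.8 and 211.3 CPM. In aKO arterial cells Gja4 stood at 89.83, 134.5 and 309.3 CPM (76 cells in the last), and in aWT at 382.4, 405.9 and 503.9 CPM. Gja5 in aKO arterial cells stood at 173.2, 239.7 and 312.6 CPM, beside 282.6, 273.5 and 323.9 CPM in aWT. In aKO venous cells Gja4 stood at 28.2, 31.35 and 68.74 CPM, the last from 35 cells. The last general capillary point rests on 14 cells, and without it the aKO values are 23.89 and 75.62 CPM.

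A few aKO cells lay in clusters that were at least 90% aWT, also singled out after the values had been seen. In general capillary clusters of this kind 43 aKO cells held Gja4 at 232.8 CPM (171.7 to 308.7), beside 199.5 CPM in the aWT cells there, and Id1 at 727.6 CPM beside 1244 CPM. This pooled Gja4 level averages clusters that went opposite ways. The aKO and aWT levels were 310.3 and 235.9 CPM in c0 (17 aKO cells), with a log2 ratio of 0.389 (-0.181 to 0.907). In c2 (10 aKO cells and 12 UMIs) the levels were 400.8 and 141.2 CPM, higher in aKO by more than counting error (1.473, 0.534 to 2.27). In c3 (16 aKO cells and 7 UMIs) they were 84.57 and 213.4 CPM, lower in aKO by more than counting error. The 12 aKO cells of such arterial clusters held Gja4 at 287.6 CPM (194.0 to 410.5), below the 438.9 CPM of aWT. They held Gja5 at 143.8 CPM (80.48 to 237.2), below the 295.4 CPM of aWT. In venous clusters of this kind 21 aKO cells held 7 Gja4 UMIs or 51.01 CPM (20.51 to 105.1), beside 64.83 CPM, and in aerocyte clusters 29 aKO cells held 0 Gja4 UMIs, beside 9.81 CPM. Xist stood at 557.8 and 508.1 CPM and Ddx3y at 0 UMIs in the general capillary and arterial sets, as in the aKO library and not as in aWT. None of these cells had a barcode that occurs in the other library.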
